A study of Mus musculus with 2 samples.

Results

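The genes described here belong to 3 families of intracellular membrane trafficking, measured in mouse liver: every gene of the deposited expression table whose symbol begins with Rab, Snx or Vps followed by a digit. They were 82 of the 8551 listed genes, with 35 Rab genes, 25 sorting nexin (Snx) genes and 22 Vps genes. The RefSeq annotation of GRCm38.p6 holds 134 protein-coding genes with such symbols, 69 Rab, 30 Snx and 35 Vps, and the table lists no gene with a mean level under 1 TPM. Of the 35 Rab genes, 30 encode Rab GTPases and 5 are named for a Rab that they bind or regulate (Rab3gap1, Rab3gap2, Rab3il1, Rab3ip and Rab11fip3). Likewise Vps72 carries the name of a yeast sorting mutant, but its protein is known as a subunit of a chromatin remodelling complex. Of the symbols, 3 differ from those in RefSeq: Rab1 is Rab1a, Rab7l1 is Rab29, and Vps24 is Chmp3.

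Rab proteins are small GTPases that mark membranes and, in their GTP form, recruit the motors, tethers and coats that move and fuse vesicles. Sorting nexins bind phosphoinositides through a PX domain, and several of them also bend membranes into tubules through a BAR domain. Vps proteins form the complexes that sort cargo at endosomes: retromer returns receptors, ESCRT takes them into multivesicular bodies, and HOPS and CORVET tether membranes before fusion. In hepatocytes this machinery recycles lipoprotein and transferrin receptors, carries secretory proteins through the Golgi and serves lipid droplets and lysosomes.

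The libraries came from the liver of 9-week-old male mice. Normal mice were wild-type C57BL/6, and diabetic mice were db/db, a mutant without a working leptin receptor. The methods do not name the background strain of the db/db mice. Livers were taken early in the light cycle, and there was 1 library per group, so no difference below has a replicate check. The methods name 2 suppliers without saying which mice came from which, and do not state whether RNA of several mice was pooled. With 1 library each, genotype and library cannot be told apart.

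The assay counts short tags that begin at a DpnII site (GATC) of the cDNA. The deposited TPM relates the tags of a gene to all clean tags of its library, scaled to a fixed total that is the same for both. A single read was worth 0.0973 TPM in the normal and 0.0740 TPM in the diabetic library, which corresponds to 10278531 and 13508232 clean tags. TPM here does not contain the length of a transcript, and tags of different genes may be recovered unequally, so levels of different genes are tag levels. The 82 genes held 12271 reads in the normal and 22597 in the diabetic library, 0.322% and 0.377% of the reads of all listed genes. No gene among the 82 stood at 3 reads or fewer in either library, and the lowest had 6 reads. A gene is called upregulated or downregulated in the diabetic library when its TPM differed at least 1.5-fold and its false discovery rate (FDR) was under 0.001. Each FDR is a Benjamini-Hochberg adjusted p, over the 8551 genes, of an exact binomial test (two-sided) of the reads of a gene. That test compares 2 libraries, not 2 conditions, and the 95% intervals, given in parentheses after each log2 ratio or share, cover counting error only.

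Since a gene is seen through its tag, the tags of the genes on which the comparisons turn are shown. Each is the DpnII site nearest the 3′ end of the longest GENCODE M21 transcript with a RefSeq match, in capitals, and the 16 bases after it in lower case, written 5′ to 3′ on the transcript's strand. The tag length and the rule for choosing the site are those of this work, and the sources used here do not state which sites of a gene the authors counted. Related genes are placed beside each other to show that these tags can be told apart. Tags at the other sites of related genes were not compared.
Rab30: GATCatcaaattgccaagcc
Rab1b: GATCcagggtcctgcatcgg
Rab1: GATCttcgaaatcctagact
Rab4b: GATCgactcaggtgaactag
Rab4a: GATCcacacctgaaatgcta
Rab8a: GATCtacctacttctgcttc
Rab8b: GATCtcagattttctacaat
Snx3: GATCagggtcaagacaaatc
Snx12: GATCcttgagatagattagc
Snx5: GATCtcatatgtctttttac
Snx6: GATCtctgaagaaaagcaga
Vps41: GATCtgattctatactccat
Vps35: GATCtgtgaaaattgaaagc
On GRCm38 the Rab30 tag lies at chr7:92844319-92844338 (plus strand), in the 3′ UTR in exon 5 of 5. The Rab1b tag lies at chr19:5099950-5099969 (minus strand) and the Rab1 tag at chr11:20226477-20226496 (plus strand), each in a 3′ UTR in exon 6 of 6. The Vps41 tag lies in coding sequence, in exon 24 of 29, at chr13:18853457-18853476 (plus strand). The Vps35 tag lies in the 3′ UTR, in exon 17 of 17, at chr8:85260882-85260901 (minus strand). The tags of Rab4b and Snx3 are in coding sequence and cross an exon junction, and the others shown are in the 3′ UTR.

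All 82 genes had such a site, with a median of 8 sites per transcript. The last site was in the 3′ UTR for 65 genes, in coding sequence for 16 and in the 5′ UTR for 1, Rab34. No tags of 2 of these genes differed by fewer than 5 bases. For 3 genes the same 20 bases also stand at a site of another annotated gene, Rab43 with Gm45140, Rab4b with Gm21983 and Vps25 with Ramp2, so their counts are uncertain.

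Of the 82 genes, 24 were upregulated in the diabetic library (29.3%) and 4 were downregulated (4.88%), and 54 passed neither call. In RNA of whole liver, fewer cells of a type and less RNA per cell cannot be told apart. Among all listed genes, 1955 were upregulated (22.9%) and 700 downregulated (8.19%), together 31.0%. The median log2 ratio, diabetic over normal TPM, was 0.27 for the 82 genes and 0.25 for all listed genes. By family, 10 Rab genes rose and 3 fell, 7 sorting nexins rose and 1 fell, and 7 Vps genes rose and 0 fell. The median log2 ratio was 0.23 for Rab, 0.22 for Snx and 0.41 for Vps genes. These counts depend on how the libraries are scaled: trimmed mean of M values (TMM) scaling, which sets the bulk of the listed genes level, left 14 of the 82 upregulated and 10 downregulated, against 14.9% and 13.4% of all genes. Under it the Rab family stood at 7 upregulated and 7 downregulated genes. By the fold of 1.5 alone, 29 of the 82 were higher (34.4% of all genes) and 9 lower (15.3% of all genes). With a variation of 20% between samples assumed in the test, 2 of the 82 passed, Rab30 and Vps41, against 3.72% of all genes. Of the 82 log2 ratios, 12 changed sign under TMM and 15 under median-ratio scaling, none of them of a called gene, since both scalings shift every gene by less than the fold required.

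**Figure D1:**
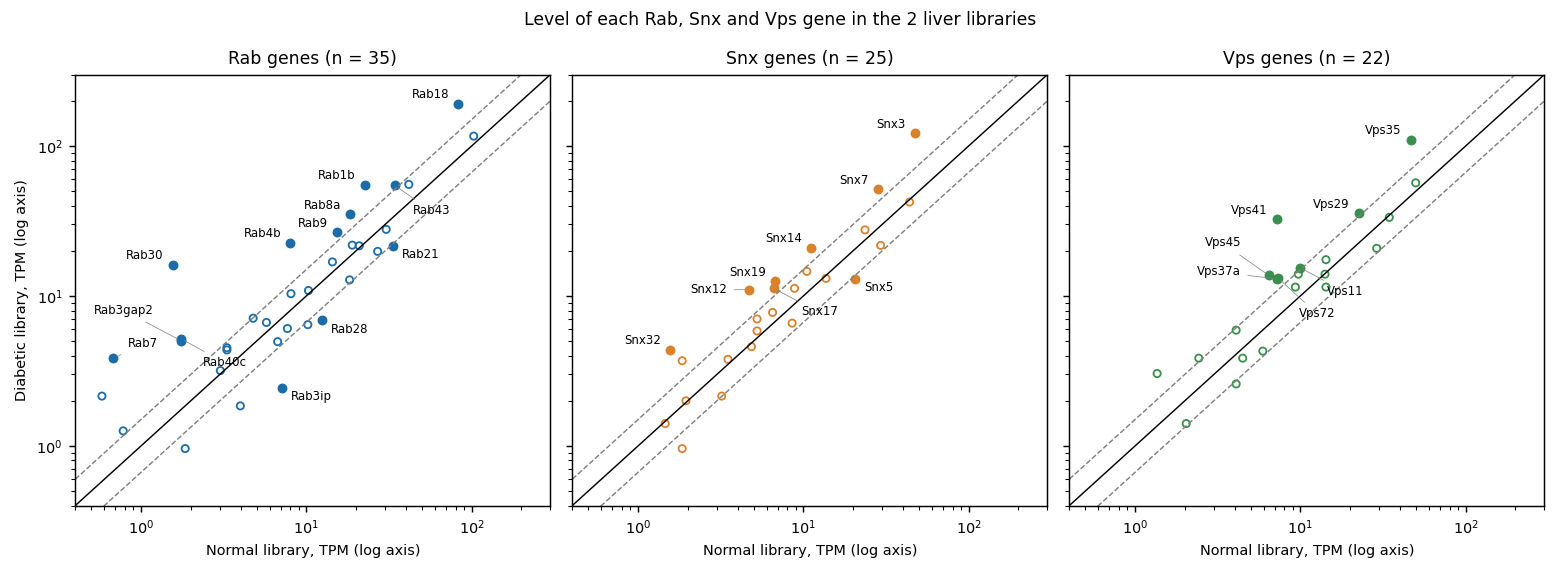
Level of each Rab, Snx and Vps gene in the normal library (horizontal, TPM, log axis) and the diabetic library (vertical, TPM, log axis), 1 library each. Filled points are called genes and are named, open points are not called, the solid line marks equal levels and the dashed lines a 1.5-fold difference. Rab30 and Vps41 lie farthest above the line among genes with a diabetic level above 10 TPM, while Rab5a, at 103 and 117 TPM, lies close to it.

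Groups by role, here and below, stand beside all listed genes, of which 22.9% were upregulated and 8.19% downregulated (14.9% and 13.4% under TMM scaling). They are small, and no test was made of their counts. Each gene was put in a single group by this work, so the counts and read shares of a group depend on that choice. Rab14, for example, acts between the Golgi and endosomes, stands with the early endosome genes and was not called. The Rab GTPases of the endoplasmic reticulum, Golgi and lipid droplets had 4 of 5 genes upregulated (3 of 5 under TMM scaling, without Rab43) and 0 downregulated. Rab18, which acts at lipid droplets and the endoplasmic reticulum, had 83.4 TPM in the normal and 192 TPM in the diabetic library. The log2 ratio of Rab18 was 1.21 (1.09 to 1.32, exact binomial FDR 1.3e-110), and in the diabetic library it was the Rab gene with the highest level. Rab30, a Golgi Rab, had 1.56 TPM from 16 reads in the normal and 16.1 TPM from 218 reads in the diabetic library. This 10.3-fold difference (log2 ratio 3.37, 2.64 to 4.21, exact binomial FDR 2.4e-34) was the widest among the 82 genes.

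Rab1b and Rab1 are close relatives that both act in transport from the endoplasmic reticulum to the Golgi. Rab1b stood at 22.6 TPM in the normal and 55.1 TPM in the diabetic library, with a log2 ratio of 1.29 (1.07 to 1.51). Rab1 stood at 19.0 and 21.8 TPM, with a log2 ratio of 0.20 whose interval, -0.06 to 0.47, holds no difference. Rab1b therefore held 54.3% of the reads of the pair in the normal library (95% Clopper-Pearson interval 49.5% to 59.1%) and 71.6% in the diabetic library (68.8% to 74.3%), a share that does not depend on the scaling. Rab43, which also acts at the Golgi, had 34.3 and 54.8 TPM. The reads of these 5 genes made up 27.4% of all Rab reads in the normal library (26.3% to 28.6%) and 41.9% in the diabetic library (41.0% to 42.9%). Rab18 alone went from 14.2% to 23.7% of the Rab reads.

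Among 10 early endosome Rab GTPases, 1 was upregulated and 1 downregulated. Rab5a, the GTPase of early endosome fusion, was the Rab gene with the highest level in the normal library, with 103 TPM there and 117 TPM in the diabetic library. The log2 ratio of Rab5a was 0.18 (0.06 to 0.29), under the fold required. Its relatives were low in both libraries, Rab5c at 7.69 and 6.07 TPM and Rab5b at 0.78 and 1.26 TPM. Rab14, which acts between the Golgi and endosomes, had 41.7 and 55.5 TPM, a 1.33-fold difference that also stayed under the fold required.

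Rab4b and Rab4a direct rapid recycling to the cell surface. Rab4b had 7.98 TPM in the normal and 22.7 TPM in the diabetic library, 2.84-fold higher (log2 ratio 1.51, 1.15 to 1.88). Rab4a had 14.4 and 16.9 TPM and was not called. The order of the paralogs turned between the libraries, with Rab4b at 35.7% of their joint reads in the normal (29.5% to 42.2%) and 57.3% in the diabetic library (53.0% to 61.5%), although the Rab4b tag is the one shared with Gm21983. Rab21, known for carrying integrins through early endosomes, was downregulated, from 33.3 TPM in the normal to 21.6 TPM in the diabetic library (log2 ratio -0.62, -0.85 to -0.39). Rab31 had 3.99 and 1.85 TPM and missed the FDR threshold (exact binomial FDR 0.00594), but was called lower under TMM scaling.

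Of 4 Rab GTPases of late endosomes, lysosomes and related organelles, 2 were upregulated. Rab9, which returns receptors from late endosomes to the Golgi, had 15.3 TPM in the normal and 26.6 TPM in the diabetic library (log2 ratio 0.80, 0.52 to 1.08), a call lost under TMM scaling. Rab7, the main Rab of late endosomes, was low, with 0.68 TPM from 7 reads in the normal and 3.85 TPM from 52 reads in the diabetic library. The interval of this log2 ratio, 2.50, was wide, 1.35 to 3.88, and Rab7 is 1 of 3 genes that were under 1 TPM in the normal library and entered the table through their mean. The other two of this group, Rab32 at 10.2 and 6.44 TPM and Rab7l1 at 27.1 and 19.8 TPM, were called lower under TMM scaling and not with the deposited values.

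Of 8 recycling and exocytic Rab GTPases, Rab8a was upregulated and none was downregulated (the same under TMM scaling). Rab8a, which directs vesicles to the plasma membrane and cilium, had 18.5 and 35.0 TPM (log2 ratio 0.92, 0.68 to 1.17). Rab8b had 1.85 and 0.96 TPM, and Rab8a held 90.9% of the reads of both in the normal (86.2% to 94.4%) and 97.3% in the diabetic library (95.5% to 98.6%). The 6 others, Rab10, Rab17, Rab11a, Rab13, Rab35 and Rab3a, had intervals that held no difference. Among the remaining Rab GTPases, Rab28, known from cilia, was lower in the diabetic library, at 12.5 and 6.88 TPM (log2 ratio -0.86, -1.26 to -0.46). Rab40c, part of a ubiquitin ligase, rose from 1.75 to 5.18 TPM (log2 ratio 1.57, 0.80 to 2.40). Rab34 had 0.58 and 2.15 TPM and missed the FDR threshold.

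Of the 5 Rab-named regulators and effectors, 1 rose and 1 fell. Rab3ip, an exchange factor that activates Rab8, was the gene with the most negative log2 ratio of the 82, at 7.10 and 2.44 TPM, 2.91-fold lower in the diabetic library (log2 ratio -1.54, -2.18 to -0.93, exact binomial FDR 4.8e-07). Rab3gap2, a subunit of the complex that inactivates Rab3 and activates Rab18, rose from 1.75 to 5.03 TPM on 18 and 68 reads. Its partner Rab3gap1 had 10.3 and 10.9 TPM and did not pass. Of the reads of both subunits, Rab3gap1 held 85.5% in the normal (78.0% to 91.2%) and 68.4% in the diabetic library (61.7% to 74.5%). The call of Rab3gap2 was lost under TMM scaling, while Rab11fip3, at 18.3 and 12.8 TPM, was then called lower.

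**Figure D2:**
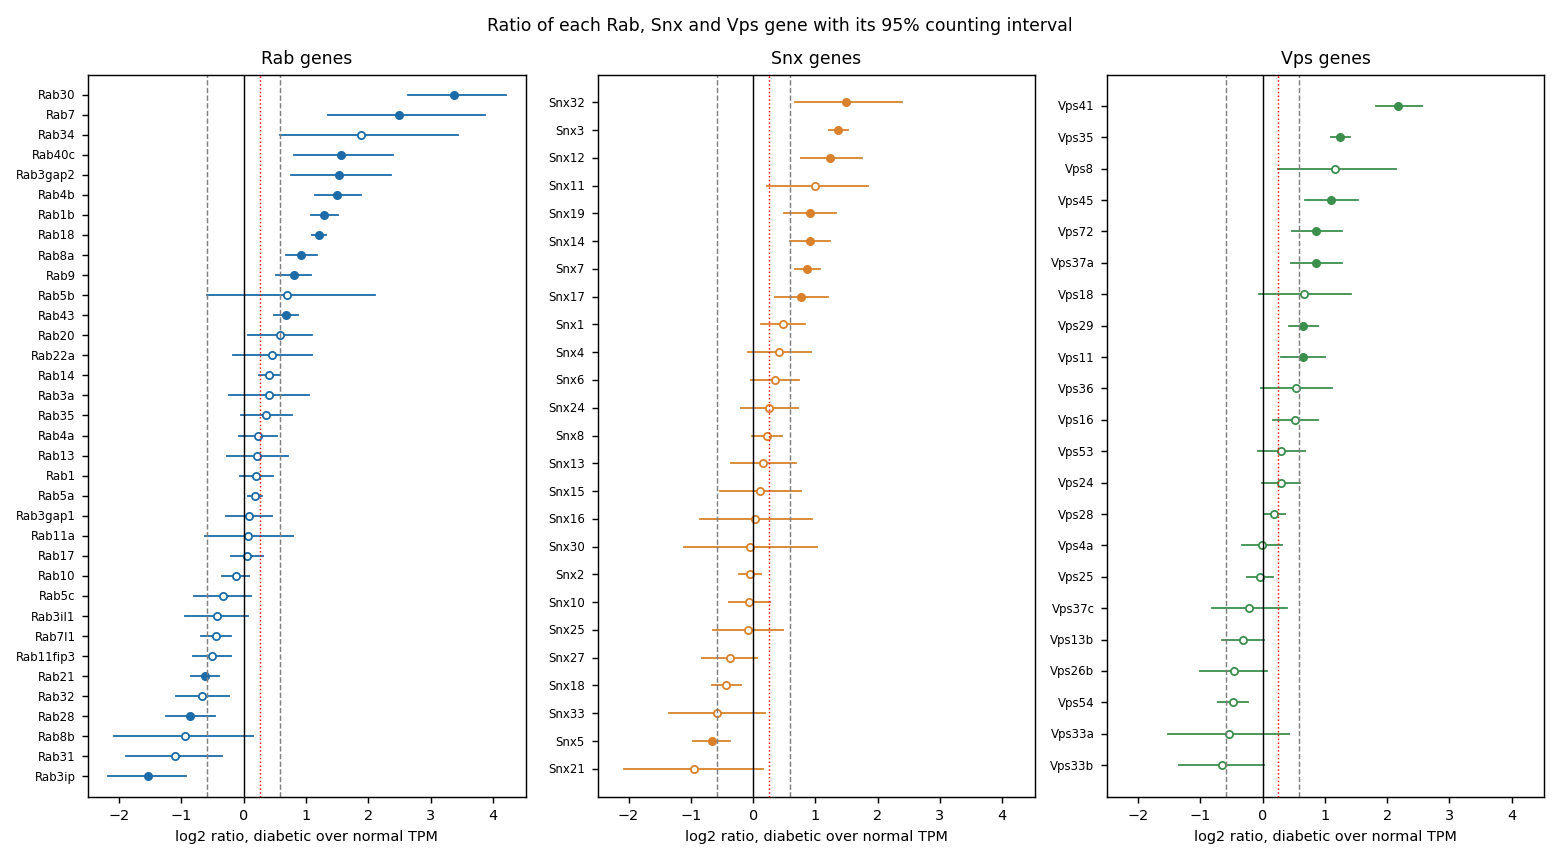
Log2 ratio of each Rab, Snx and Vps gene, diabetic over normal TPM (horizontal axis), with its 95% interval from counting error, genes in order of their ratio. Filled points are called genes, dashed lines mark a 1.5-fold difference, the black line a ratio of 0 and the red dotted line the median of all listed genes, 0.25, and the intervals widen for genes with few reads such as Rab7 and Snx21.

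Among the sorting nexins, Snx3 had the highest level in both libraries and the lowest FDR. Snx3, which has a PX domain and no BAR domain and recruits retromer to early endosomes, had 47.3 TPM from 486 reads in the normal and 122 TPM from 1648 reads in the diabetic library. The log2 ratio was 1.37 (1.22 to 1.52, exact binomial FDR 2.0e-85). Snx12, its closest relative, went the same way, from 4.67 to 11.0 TPM (log2 ratio 1.24, 0.76 to 1.74). Snx3 held 91.0% of the reads of both in the normal and 91.7% in the diabetic library, with overlapping intervals (88.3% to 93.3% and 90.3% to 92.9%). Of all Snx reads, Snx3 took 15.7% in the normal (14.4% to 17.0%) and 28.8% in the diabetic library (27.7% to 30.02%). Of the other 5 genes of its group of PX-only and short sorting nexins, Snx10, Snx11, Snx16, Snx21 and Snx24, none passed.

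Of 11 SNX-BAR genes, 2 were upregulated and 1 was downregulated (1 and 2 under TMM scaling). Snx7, a partner of Snx4 in recycling and autophagy, had 28.2 and 51.5 TPM (log2 ratio 0.87, 0.67 to 1.07). Snx32, a relative of Snx5 and Snx6, had 1.56 and 4.37 TPM (log2 ratio 1.49, 0.67 to 2.39), a call lost under TMM scaling. Snx5 was the downregulated gene, at 20.6 and 13.0 TPM, 1.58-fold lower (log2 ratio -0.66, -0.96 to -0.37).

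Snx5 and Snx6 each pair with Snx1 or Snx2 to form the tubules through which retromer cargo leaves endosomes. Snx6 had 8.85 and 11.3 TPM and was not called, and Snx5 held 70.0% of the reads of Snx5 and Snx6 in the normal (64.5% to 75.1%) and 53.7% in the diabetic library (48.1% to 59.2%). Snx1 had 10.5 and 14.6 TPM and Snx2 had 44.0 and 42.3 TPM, and neither was called. Taking Snx1, Snx2, Snx3, Snx5 and Snx6 together, Snx3 held 36.0% of their reads in the normal (33.5% to 38.7%) and 60.0% in the diabetic library (58.2% to 61.9%). Snx18, which acts in endocytosis and autophagy, had 29.4 and 21.8 TPM and was called lower under TMM scaling and not with the deposited values.

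The PX-FERM sorting nexins Snx17 and Snx27 recycle receptors such as those of the low density lipoprotein receptor family. Snx17 had 6.62 and 11.3 TPM (log2 ratio 0.77, 0.34 to 1.20), with the highest FDR of any called gene among the 82 (exact binomial FDR 6.2e-04), and lost its call under TMM scaling. Snx27, which also binds retromer, had 8.56 and 6.59 TPM and was not called. Of 4 sorting nexins with an RGS domain, 2 were upregulated (1 under TMM scaling). Snx14, known at contacts of the endoplasmic reticulum with lipid droplets, had 11.2 and 21.0 TPM (log2 ratio 0.90, 0.59 to 1.23). Snx19 had 6.71 and 12.6 TPM (log2 ratio 0.91, 0.49 to 1.33), and Snx13 and Snx25 were not called.

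The Vps genes that were upregulated belonged to retromer, HOPS and CORVET, ESCRT and a pair outside these complexes. Vps35, the scaffold of retromer, had 46.5 TPM from 478 reads in the normal and 110 TPM from 1490 reads in the diabetic library (log2 ratio 1.25, 1.10 to 1.40, exact binomial FDR 4.6e-67). Vps29, which binds the end of Vps35, had 22.7 and 35.6 TPM (log2 ratio 0.65, 0.42 to 0.88), a call lost under TMM scaling. Vps26b, the arrestin-like subunit, had 5.93 and 4.29 TPM and was not called. The retromer genes thus did not move alike: Vps35 held 61.9% of the reads of the 3 genes in the normal (58.4% to 65.4%) and 73.4% in the diabetic library (71.5% to 75.3%), and Vps26b 7.90% (6.10% to 10.03%) and 2.86% (2.18% to 3.68%). Vps26a was not analysed here.

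HOPS and CORVET share a core made of Vps11, Vps16, Vps18 and Vps33a, and differ in the subunits that bind Rab proteins. Vps41, found in HOPS and not in CORVET, had 7.20 TPM from 74 reads in the normal and 32.6 TPM from 440 reads in the diabetic library. At 4.52-fold (log2 ratio 2.18, 1.82 to 2.55, exact binomial FDR 1.2e-43) it was the Vps gene with the largest ratio. Among the core genes, Vps11 had 9.92 and 15.5 TPM and was called (log2 ratio 0.64, 0.29 to 1.00), but not under TMM scaling. Vps16 had 9.73 and 13.99 TPM, Vps18 had 2.43 and 3.85 TPM and Vps33a had 2.04 and 1.41 TPM, and none of them was called. The 7 genes grouped here under HOPS and CORVET include Vps33b, which is not among the core genes named above. Of the reads of these 7 genes, Vps41 held 19.6% in the normal (15.7% to 23.9%) and 44.7% in the diabetic library (41.5% to 47.8%). Vps8, a subunit of CORVET, had 1.36 and 3.04 TPM and Vps33b had 4.09 and 2.59 TPM, and neither passed.

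Of 7 ESCRT genes, 1 was upregulated (0 under TMM scaling) and 0 were downregulated. Vps28, a subunit of ESCRT-I, was the Vps gene with the highest level in the normal library, at 49.9 TPM there and 56.9 TPM in the diabetic library. Vps25, a subunit of ESCRT-II, had 34.5 and 33.5 TPM, though its tag is shared with Ramp2. Vps37a, also of ESCRT-I, had 7.20 and 13.0 TPM and was called (log2 ratio 0.86, 0.46 to 1.27), while its paralog Vps37c had 4.48 and 3.85 TPM and was not. Vps37a held 61.7% of the reads of both in the normal (52.4% to 70.4%) and 77.2% in the diabetic library (71.2% to 82.5%). The ESCRT genes made up 41.9% of all Vps reads in the normal (40.2% to 43.7%) and 33.0% in the diabetic library (31.8% to 34.2%). Their summed level was 129 TPM in the normal and 145 TPM in the diabetic library, so the share fell while the sum did not.

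Outside these complexes, Vps45, which binds syntaxins on endosomes, had 6.42 and 13.8 TPM (log2 ratio 1.10, 0.69 to 1.53). Vps72, the chromatin protein, had 7.30 and 13.3 TPM (log2 ratio 0.86, 0.46 to 1.27), a call lost under TMM scaling. Vps54, of the GARP complex that tethers vesicles at the Golgi, had 29.0 and 20.8 TPM. Its 1.39-fold lower level stayed under the fold required, and under TMM scaling it was called lower. Vps53, of the same complex, had 9.34 and 11.5 TPM, and Vps13b, a lipid transfer protein, had 14.3 and 11.5 TPM, and neither was called.

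**Figure D3:**
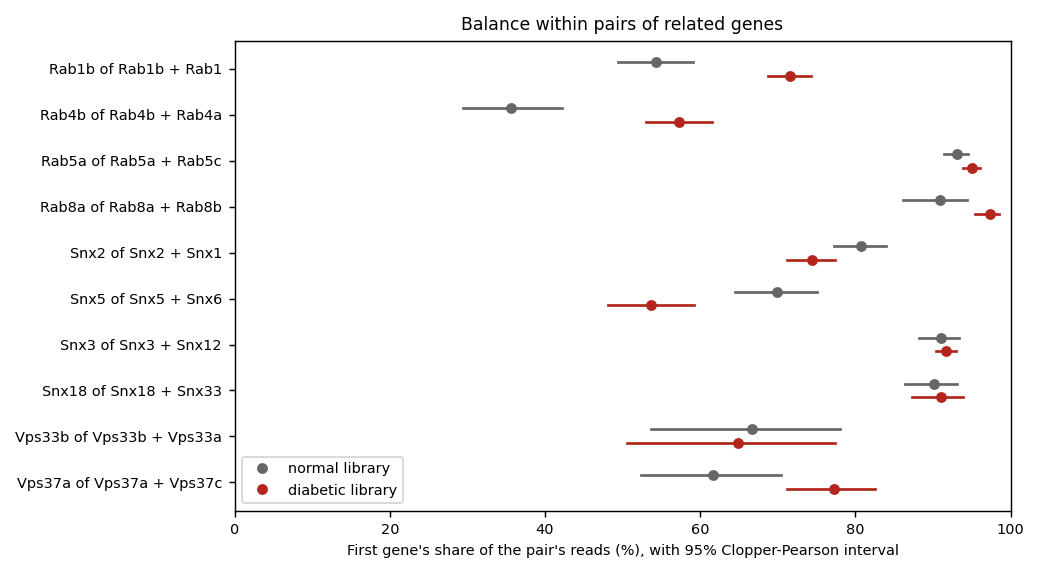
Share of the first named gene in the reads of a pair of related genes (horizontal axis, percent), in the normal library (grey) and the diabetic library (red), with 95% Clopper-Pearson intervals. The intervals of the 2 libraries do not overlap for Rab1b, Rab4b, Rab8a, Snx5 and Vps37a, while Snx3 with Snx12, Snx18 with Snx33 and Vps33b with Vps33a show overlapping intervals.

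Lists of other genes of the same routes were counted in the same way, as a description. Among all listed genes, 22.9% were upregulated and 8.19% downregulated (14.9% and 13.4% under TMM scaling), with a median log2 ratio of 0.25. Among 48 listed regulators of the Rab cycle, such as exchange factors and GTPase activating proteins, 3 were upregulated (6.25%) and 2 downregulated (4.17%). Their median log2 ratio was 0.27 (0 and 2 genes called under TMM scaling). The called genes with the highest and the lowest ratio were Tbc1d25, at 0.49 and 2.37 TPM, and Dennd4b, at 6.52 and 1.85 TPM. Among 24 listed partners in ESCRT, HOPS, GARP and retromer pathways, 10 were upregulated (41.7%) and 0 downregulated (6 and 3 under TMM scaling). Their median log2 ratio was 0.29. The called genes ran from the ESCRT-III gene Chmp1b, at 25.7 and 39.8 TPM, to the ESCRT-0 gene Stam, at 0.49 and 2.96 TPM on 5 and 40 reads.

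Among 67 listed SNAREs and tethers, 22 were upregulated (32.8%) and 4 downregulated (5.97%), with a median of 0.51 (15 and 4 under TMM scaling). The exocyst gene Exoc5, at 2.14 and 9.55 TPM, had the highest ratio and the exocyst gene Exoc6b, at 3.11 and 0.89 TPM, the lowest. Among 39 listed vesicle coat genes, 12 were upregulated (30.8%) and 1 downregulated (2.56%), with a median of 0.43 (7 and 1 under TMM scaling). The adaptor genes Ap1g2, at 0.88 and 3.11 TPM, and Ap2b1, at 29.4 and 14.3 TPM, had the highest and the lowest ratio among the called genes. Tbc1d25, Stam and Ap1g2 were under 1 TPM in the normal library and Exoc6b in the diabetic library, so these genes entered the table through their mean. The Rab cycle regulators had low levels, with 30 of 48 under a mean of 5 TPM against 24 of the 82 Rab, Snx and Vps genes. By the fold of 1.5 alone, 14 of the 48 and 29 of the 82 were higher in the diabetic library, against 34.4% of all listed genes. No test was made between these groups, and the part of level in their calls was not tested.

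**Figure D4:**
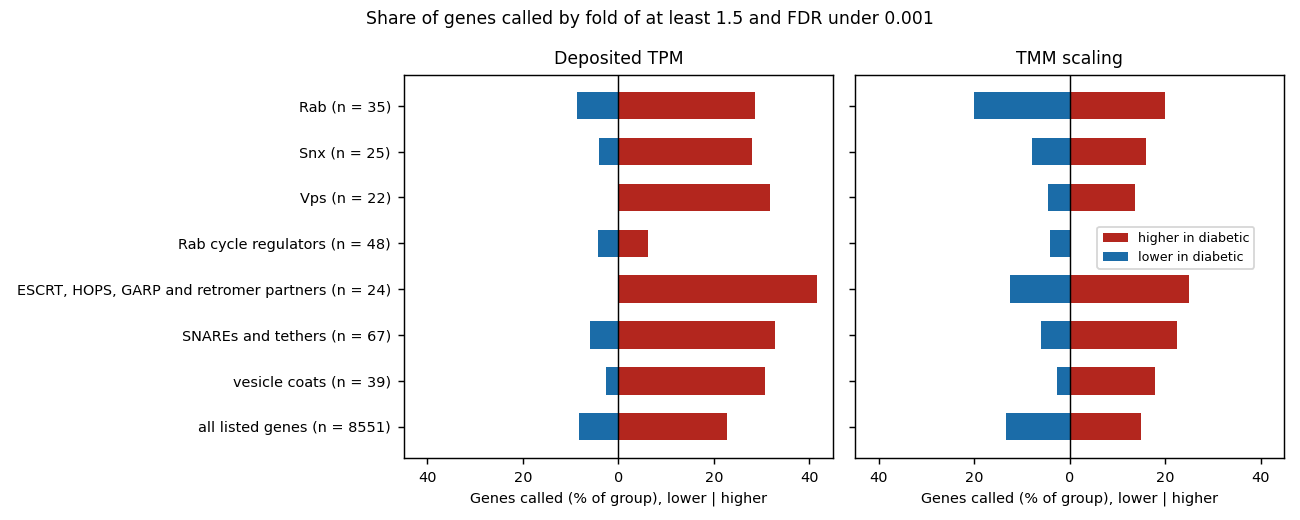
Percent of genes upregulated (red, to the right) and downregulated (blue, to the left) in the diabetic library for each family, the related lists and all listed genes, with deposited TPM and with TMM scaling. With deposited TPM all groups but the Rab cycle regulators lie to the right of all listed genes, at 22.9%, and TMM scaling brings the Rab family to 20% in each direction and the Vps genes, at 13.6% upregulated, below the 14.9% of all listed genes.

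Of the hepatocyte markers, 5 of 9 were listed and summed to 9755 TPM in the normal and 9148 TPM in the diabetic library. Most of that sum was Alb, at 6801 and 6912 TPM, while Apob was called lower, at 804 and 147 TPM, and Cps1 higher, at 130.3 and 317 TPM. Of the Kupffer cell and macrophage markers, 9 of 13 were listed, and 5 were called lower and 1 higher. Their sum was 347 TPM in the normal and 204 TPM in the diabetic library. Of that sum, C1qa made up 176 and 50.7 TPM, and the gene called higher was C1qb, at 38.1 and 57.8 TPM. Endothelial markers (10 of 10 listed) summed to 152 and 132 TPM, with 1 called higher (Kdr) and 2 lower (Clec4g and Eng). Stellate cell markers (8 of 10) summed to 122 and 165 TPM, with 1 called higher (Col1a1) and 1 lower (Reln). Cholangiocyte markers (3 of 5) summed to 61.5 and 107 TPM. Of the cholangiocyte sum, Spp1 made up 57.2 and 103 TPM, and Epcam and Krt7 were not called. Lymphocyte markers (4 of 11) summed to 8.86 and 6.65 TPM, and the erythroid and neutrophil lists had 1 gene each, Alas2 at 51.9 and 44.2 TPM and S100a9 at 2.33 and 3.04 TPM. The part of these differences in the levels of the Rab, Snx and Vps genes was not tested.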

How the data were processed

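Digital gene expression tags were made from poly(A) RNA of 1 normal and 1 diabetic liver library; the groups were taken from the labels. Per the methods, the authors removed adaptors, kept clean tags, compared them with RefSeq and normalised each gene to TPM, and the submitters' processing notes name mm9. The deposited TPM is RPM in the usual sense, reads scaled to the clean tags of the library, with 0.01 in place of 0. The aligner and the treatment of tags with several matches are not given in the sources used here. The number of other columns of sample values was 0.

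Since 1 read is worth a fixed TPM in each library, the deposited values were turned back into whole reads (8513 of 8513 and 8536 of 8537 values within a rounding tolerance of 0.005 TPM). Fold changes are ratios of deposited TPM. The test, thresholds and intervals are given in the report. TMM scaling (trims of 30% and 5%) and the test with an assumed variation of 20% were computed with own code in place of the package planned. By the rule for named genes, values are given for genes that were called, were among the 3 highest of a family, belong to the retromer group or are paralogs of these, and for the called genes with the highest and lowest ratio of each list. Rab31, Rab32, Rab34, Rab7l1, Rab3gap1, Rab11fip3, Snx18, Vps8, Vps13b, Vps16, Vps18, Vps33a, Vps33b, Vps53 and Vps54 fall outside it and were chosen after their values were seen. The members and lists were chosen with earlier results of these data known. Entrez identifiers matched RefSeq for 82 of 82 genes. On simulated reads of 8551 genes, the exact test called 149 of 200 genes changed 3-fold, 0 unchanged genes, and 89 of 89 changed genes whose mean reached 10 TPM. These reads were drawn with counting error only, without variation between samples or a shift between libraries. The 0 therefore says little about false calls in the deposited data. The software was scipy 1.17.1, pandas 2.3.3, numpy 2.4.6 and matplotlib 3.10.9 under Python 3.11.15. Proteins and promoters were not used here.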

Additional observations from a re-analysis of the deposited data

How the results depend on the processing

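With 1 library per group no replicate could be left out and no paired analysis could be made. TMM scaling, by which every log2 ratio decreased by 0.25, gave 14 upregulated and 10 downregulated genes of the 82, with 4 Snx and 3 Vps genes upregulated and 7 Rab, 2 Snx and 1 Vps gene downregulated. The 14 were all among the 24 upregulated with the deposited values, and the 4 downregulated genes remained. Median-ratio scaling, by which every log2 ratio decreased by 0.31, gave 12 and 11 genes, with 6 Rab, 3 Snx and 3 Vps genes upregulated and 7 Rab, 2 Snx and 2 Vps genes downregulated. A fold threshold of 2 left 13 upregulated genes, of them 3 Snx and 3 Vps, and 1 downregulated gene, which was a Rab-named gene (Rab3ip), and 0 Snx genes downregulated. The fold of 1.5 alone, without the test, gave 29 upregulated (34.4% of all genes) and 9 downregulated genes (15.3% of all genes), of the latter 6 Rab, 2 Snx and 1 Vps. A mean of at least 5 TPM gave 20 and 3 genes. For median-ratio scaling, the fold threshold of 2 and this mean filter, the share of all listed genes is not given here. Those counts therefore cannot be set against all listed genes. An assumed variation of 20% between samples left 2 upregulated genes, 1 Rab (Rab30), 0 Snx and 1 Vps (Vps41), and 0 downregulated genes, 0 Rab and 0 Snx, against 3.72% of all genes. In the simulated data that setting called 0 of 200 genes changed 3-fold, so it says little about changes of that size. With 1 TPM added to both values, no log2 ratio left its counting interval. Of the 82 log2 ratios and 4 medians, 21 moved outside a counting interval under TMM and 29 under median-ratio scaling. A ratio was set against its own interval, and a median against the interval of the gene nearest to it. Of the 82 ratios, 12 and 15, none of a called gene, changed sign under these 2 scalings. Of the 82 intervals, 39 held no difference, 27 of them of genes with under 100 reads in the normal library and 12 of genes with at least that number, such as Snx2 and Vps25.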
